A study of Nasonia vitripennis with 6 samples.

Results

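The genes described here are the Nasonia homologs of crumbs, expanded, cadherin 74a, calsyntenin and wing blister, the 5 genes of the broad lateral expression class of the wasp blastoderm that are assigned to cell adhesion or epithelial morphogenesis. They were chosen by name and identifier from the study's list of 110 genes patterned along the dorsoventral axis, of which 22 are broad lateral, and each was followed to 1 of the 20033 loci of the deposited expression table. The study asked which genes depend on Toll and BMP signaling in the embryo of the parasitoid wasp Nasonia vitripennis, and it injected female pupae with double-stranded RNA so that the transcript was depleted in their progeny (parental RNAi, pRNAi). Poly-A RNA of pooled embryos, 4 to 7 h old, was sequenced in 6 libraries of 3 groups. Per the study, this window opens at the penultimate syncytial division and closes as gastrulation starts. The 2 Toll pRNAi libraries came from mothers injected with dsRNA against TollA, a Toll receptor gene, and per the study's methods they differ in the section of the gene that the dsRNA targets. The 2 BMP pRNAi libraries came from mothers injected with dsRNA against a BMP ligand, gbb in one library and dpp in the other, and the 2 water libraries came from water-injected mothers. The BMP group therefore holds 1 library per ligand, and a difference between the ligands has no replicate. Each library was made from a pool of embryos of many mothers, so the spread between libraries is a spread between pools.

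In Drosophila, Crumbs is a transmembrane protein that marks the apical side of epithelial cells, works with the scaffold Stardust, and binds Expanded, a FERM domain protein upstream of the Hippo kinases and their target Yorkie. Cadherins join neighbouring cells through their extracellular repeats, and laminins form the basement membrane that integrin receptors hold. The lateral cells that express the 5 genes are ectoderm, lying between the mesoderm, which forms ventrally under high Toll signaling, and the serosa, an extraembryonic epithelium that forms dorsally under high BMP signaling. Where each gene is expressed was determined by the study by in situ hybridization and was not measured in these libraries.

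Depth was between 22754267 and 30590172 fragments per library. The targeted receptor was depleted, with TollA at 4.92 and 1.23 FPKM in Toll pRNAi libraries, against 101 and 128 FPKM in water libraries (FPKM, fragments scaled to transcript length and library size). The targeted ligand dpp was at 7.03 FPKM in the dpp pRNAi library and 12.7 FPKM in the gbb pRNAi library, against 18.1 and 17.0 FPKM in water libraries. It did not pass the test between the groups (edgeR adjusted p = 0.0567). That test includes the gbb pRNAi library, where dpp was not the target. The level of gbb, the other targeted ligand, was not examined here. Over 6806 loci above 3 FPKM, the SD of the log2 difference between the libraries of a group was 0.14 for Toll pRNAi, 0.26 for BMP pRNAi and 0.21 for water, so the BMP pair differed most.

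Each of the 5 genes lay in a locus for which the table used here, which pairs 1799 of the 20033 loci with identifiers, gives no other gene identifier, with between 1215 and 6688 fragments in a library. On assembly 1.0, crumbs (Nasvi2EG005268) lies on scaffold 8, positions 320174 to 338430, and expanded (Nasvi2EG037047) on the same scaffold, positions 3261342 to 3303737. The cadherin 74a locus (Nasvi2EG003993) is on scaffold 5, positions 3773198 to 3801330, and that of calsyntenin (Nasvi2EG011947) on scaffold 28, positions 200972 to 220491. The wing blister locus (Nasvi2EG011291) is on scaffold 24, positions 493118 to 502857. These intervals span exons and introns together. Crumbs is also listed by the study under a second identifier, which was not used here. The mean FPKM of the 5 genes over all libraries was above that of 50.6% (cadherin 74a) to 66.2% (wing blister) of the 10241 loci tested, so they were genes of middle abundance.

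Knockdown of BMP signaling lowered the transcripts of all 5 genes. The polarity determinant crumbs had 13.6 FPKM in the gbb pRNAi library and 10.6 FPKM in the dpp pRNAi library, against 21.3 and 20.02 FPKM in water libraries. Its Hippo pathway partner expanded had 10.98 and 7.60 FPKM in the gbb and dpp pRNAi libraries, against 15.8 and 16.2 FPKM in water libraries. For both genes, either BMP pRNAi library lay below both water libraries. Tested on fragment counts, crumbs fell by 0.80 on the log2 scale (SE 0.12, 95% confidence interval -1.09 to -0.52, edgeR adjusted p = 0.0123), which is 1.75-fold lower. The fall of expanded was of nearly the same size, at -0.80 (SE 0.16, interval -1.16 to -0.43, edgeR adjusted p = 0.0315).

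The cadherin superfamily genes fell as well. Cadherin 74a, the least abundant of the 5, had 8.06 FPKM in the gbb and 6.66 FPKM in the dpp pRNAi library, against 11.6 and 10.9 FPKM in water libraries. Calsyntenin, whose mammalian homologs are transmembrane proteins of neurons, had 14.5 and 8.91 FPKM in the gbb and dpp pRNAi libraries, against 22.7 and 20.6 FPKM in water libraries. Neither gene overlapped between the groups. The log2 fold change was -0.64 for cadherin 74a (SE 0.11, interval -0.90 to -0.38, edgeR adjusted p = 0.0227) and -0.88 for calsyntenin (SE 0.19, interval -1.31 to -0.46, edgeR adjusted p = 0.0363).

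Wing blister, which encodes a laminin alpha chain in Drosophila, was the most abundant of the 5. It had 20.4 FPKM in the gbb and 14.3 FPKM in the dpp pRNAi library, against 28.5 and 26.8 FPKM in water libraries, again with no overlap. Its log2 fold change was -0.70 (SE 0.15, interval -1.05 to -0.35, edgeR adjusted p = 0.0394).

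Thus 5 of 5 genes were called lower after BMP pRNAi, where 3.49% of all loci tested were called lower and 2.06% higher. Their median log2 fold change was -0.80, beside 0.0084 for all loci. The study drew its list of patterned genes from these libraries, so the count is not independent evidence of the direction. Their libraries also did not overlap, but this was so for 28.8% of all loci in the same direction, so that separation alone says little with 2 libraries a group. The 5 confidence intervals overlapped widely, and no order of response among the genes can be read from them. In bulk libraries, fewer cells expressing a gene and less transcript per cell cannot be told apart.

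The calls in this comparison lay near the threshold and depended on which libraries were in the fit. Without water replicate 1 or without water replicate 2, 0 of the 5 genes were called (edgeR adjusted p between 0.0768 and 0.198), though all 5 had an unadjusted p under 0.05, and without Toll pRNAi replicate 1 or without Toll pRNAi replicate 2, crumbs and cadherin 74a remained called while expanded, wing blister and calsyntenin did not. Fits that leave 1 library in a group assume that it varies like the other groups, so their calls depend on that assumption. Leaving out a BMP pRNAi library also removes the pair that differed most (SD 0.26), so no call is read here from those fits. Without the gbb library (BMP pRNAi replicate 1) the log2 fold change was -0.99 for wing blister and -1.27 for calsyntenin. Without the dpp library (BMP pRNAi replicate 2) it was -0.46 for wing blister and -0.58 for calsyntenin. The direction was lower in every alternative tried, with log2 fold changes between -0.46 and -1.27.

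**Figure D1:**
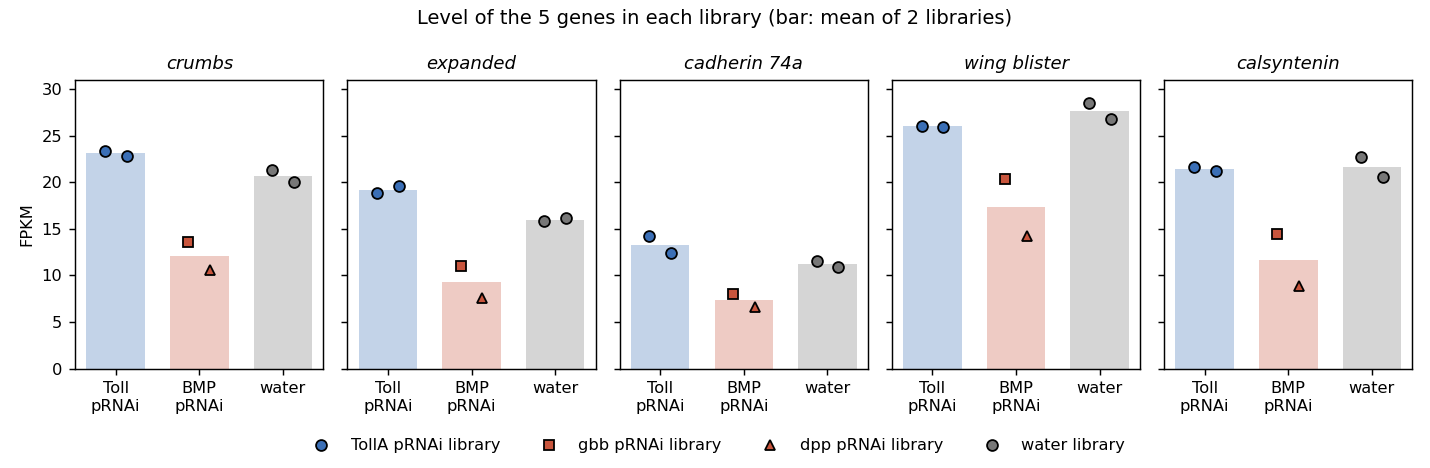
FPKM of the 5 genes (vertical axis) in Toll pRNAi, BMP pRNAi and water libraries, with each point a library and each bar the mean of 2 libraries. Both BMP pRNAi points lie below both water points for each gene, and the dpp pRNAi library (triangle) lies below the gbb pRNAi library (square).

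Knockdown of Toll signaling left the 5 genes near the water level. Crumbs had 23.4 and 22.8 FPKM in Toll pRNAi libraries, against 21.3 and 20.02 FPKM in water libraries. Expanded had 18.8 and 19.6 FPKM in Toll pRNAi libraries, against 15.8 and 16.2 FPKM in water libraries. Cadherin 74a had 14.2 and 12.4 FPKM in Toll pRNAi libraries, against 11.6 and 10.9 FPKM in water libraries. These 3 genes had both Toll pRNAi libraries above both water libraries, which 32.6% of all loci tested also had. Wing blister lay slightly below water, at 26.1 and 25.9 FPKM in Toll pRNAi libraries, against 28.5 and 26.8 FPKM in water libraries, without overlap, which 26.1% of all loci tested also had. Calsyntenin overlapped, at 21.7 and 21.2 FPKM in Toll pRNAi libraries, against 22.7 and 20.6 FPKM in water libraries.

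None of the 5 genes passed the edgeR test between Toll pRNAi and water, where 1.03% of all loci were called lower and 2.6% higher. At an unadjusted p under 0.05 the count in this fit was also 0. That unadjusted count was 3 with only the 2 groups compared, 2 with no filter on low counts and 2 with limma voom. At the adjusted threshold, DESeq2 and the limma fits also called 0 of the 5. Their log2 fold changes were 0.18 for crumbs, 0.29 for expanded, 0.26 for cadherin 74a, -0.08 for wing blister and 0.01 for calsyntenin, with SE between 0.11 and 0.18. The confidence intervals limit what change could have been missed. For crumbs the interval ran from -0.10 to 0.46, for expanded from -0.08 to 0.65 and for cadherin 74a from -0.0012 to 0.52, so that rises up to these upper bounds could have been missed. For wing blister the interval ran from -0.42 to 0.27 and for calsyntenin from -0.41 to 0.43. The fall fitted after BMP pRNAi lay below the lower bound of this interval for each of the 5 genes. Expanded was called higher when only the Toll pRNAi and water libraries were fitted (0.27, edgeR adjusted p = 0.0384). In that fit 1343 of 9946 loci were called, 723 of them higher, against 371 of 10241 with all 6 libraries. The call is therefore not particular to expanded. Its log2 fold change was 0.26 without BMP pRNAi replicate 1 and 0.26 without BMP pRNAi replicate 2.

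**Figure D2:**
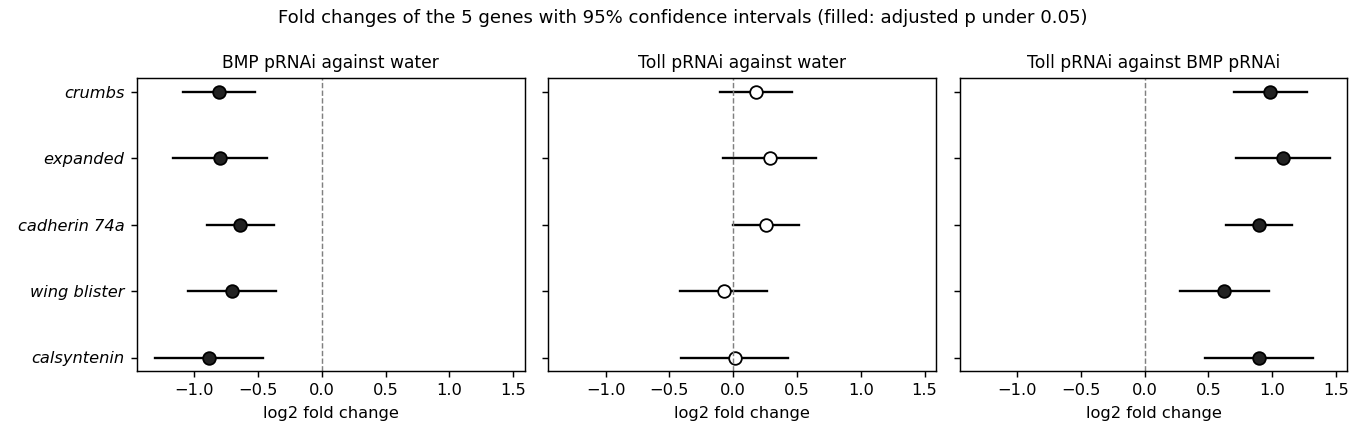
Log2 fold change of the 5 genes (points) with 95% confidence intervals (lines) in the 3 comparisons, with filled points for an edgeR adjusted p under 0.05. All 5 points are filled and below 0 for BMP pRNAi against water, open and between -0.08 and 0.29 for Toll pRNAi against water, and filled and above 0 for Toll pRNAi against BMP pRNAi.

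The direct comparison of the knockdowns tests whether the 5 genes responded differently to the loss of Toll and of BMP signaling. Every gene was higher in Toll pRNAi than in BMP pRNAi libraries, and 5 of 5 passed the test, where 5.83% of all loci were called higher and 1.06% lower. The study's list of patterned genes was drawn from these libraries, in part through this same comparison. The count is therefore not independent evidence of the direction. The libraries did not overlap for any of the 5, which was so for 29.1% of all loci in this direction. Expanded averaged 19.2 ± 0.524 FPKM in Toll pRNAi libraries and 9.29 ± 2.39 FPKM in BMP pRNAi libraries (SD, n = 2 each), with a log2 fold change of 1.08 (SE 0.16, edgeR adjusted p = 0.00593). Crumbs averaged 23.1 ± 0.404 FPKM in Toll pRNAi and 12.1 ± 2.13 FPKM in BMP pRNAi libraries, with a log2 fold change of 0.98 (SE 0.12, edgeR adjusted p = 0.00259). These polarity genes thus differed about 2.12-fold and 1.98-fold between the knockdowns.

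Cadherin 74a averaged 13.3 ± 1.29 FPKM in Toll pRNAi and 7.36 ± 0.990 FPKM in BMP pRNAi libraries, with a log2 fold change of 0.90 (SE 0.11, edgeR adjusted p = 0.00274). Calsyntenin averaged 21.4 ± 0.360 FPKM in Toll pRNAi and 11.7 ± 3.93 FPKM in BMP pRNAi libraries, with a log2 fold change of 0.90 (SE 0.19, edgeR adjusted p = 0.0258). Wing blister averaged 25.99 ± 0.117 FPKM in Toll pRNAi and 17.3 ± 4.33 FPKM in BMP pRNAi libraries, with a log2 fold change of 0.63 (SE 0.15, edgeR adjusted p = 0.0466). No order of the 5 genes can be read from this comparison either, since their intervals overlapped. Leaving out 1 library gave 0.35 to 0.90 for wing blister and 0.57 to 1.26 for calsyntenin, the lowest without the dpp library (BMP pRNAi replicate 2) and the highest without the gbb library (BMP pRNAi replicate 1). Wing blister lost its call in 8 of 16 alternatives, among them the removal of any 1 Toll pRNAi or water library. Calsyntenin lost its call in 7 of 16, among them the same removals, and without Toll pRNAi replicate 2 expanded was also no longer called (edgeR adjusted p = 0.0502).

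Across the 3 groups, 3 of the 5 genes (crumbs, expanded and cadherin 74a) were ordered with both BMP pRNAi libraries below both water libraries and these below both Toll pRNAi libraries. This order with no overlap held for 5.82% of all loci tested. Mew, stardust and echinus had the same order, so it was not particular to the 5. All of these genes were selected by the study from these libraries, so the count is not independent evidence of the order. Wing blister and calsyntenin did not show this order, since their Toll pRNAi libraries lay below or among the water libraries.

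Levels could be compared between genes on the FPKM scale, which accounts for transcript length. In water libraries the order was wing blister (27.7 ± 1.18 FPKM), calsyntenin (21.6 ± 1.496 FPKM), crumbs (20.7 ± 0.897 FPKM), expanded (16.0 ± 0.231 FPKM) and cadherin 74a (11.3 ± 0.472 FPKM; SD, n = 2 each), where calsyntenin and crumbs overlapped and the other neighbours did not. In Toll pRNAi libraries crumbs stood above calsyntenin, with both crumbs libraries (23.4 and 22.8 FPKM) above both calsyntenin libraries (21.7 and 21.2 FPKM). In BMP pRNAi libraries most neighbours overlapped, and wing blister (20.4 and 14.3 FPKM) overlapped calsyntenin (14.5 and 8.91 FPKM). Within each BMP pRNAi library wing blister was the highest and cadherin 74a the lowest of the 5.

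The dpp and gbb pRNAi libraries differed in how far the 5 genes fell. Relative to the mean of the water libraries, on TMM-scaled CPM (counts scaled to library size), crumbs was at 65.1% in the gbb pRNAi library and 49.3% in the dpp pRNAi library. Expanded was at 68.6% in the gbb and 46.3% in the dpp library, and cadherin 74a at 70.8% in the gbb and 57.6% in the dpp library. Wing blister was at 72.8% in the gbb and 50.2% in the dpp library, and calsyntenin at 66.7% in the gbb and 41.5% in the dpp library. The gbb library alone thus held every gene between 65.1% and 72.8% of the water mean, while the dpp library spread from 41.5% to 57.6%.

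The dpp library was below the gbb library for 5 of 5 genes. This was so for 48.9% of all loci tested and for 70.3% of the 357 loci called lower after BMP pRNAi. The log2 ratio of the dpp to the gbb library was -0.68 for calsyntenin, -0.57 for expanded, -0.54 for wing blister, -0.40 for crumbs and -0.30 for cadherin 74a. For the same genes the water libraries differed by 0.01 to 0.14 and the Toll pRNAi libraries by 0.0050 to 0.19 on the log2 scale. Over 6806 loci above 3 FPKM, the 5th percentile of the dpp to gbb ratio was -0.40, and 9.02% of them were as far down as cadherin 74a or further. With 1 library per ligand, the ligand and the library cannot be told apart. Which BMP pRNAi library is dpp and which is gbb rests on the input order of the authors' Cuffdiff call, since the table itself names replicates by number only.

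**Figure D3:**
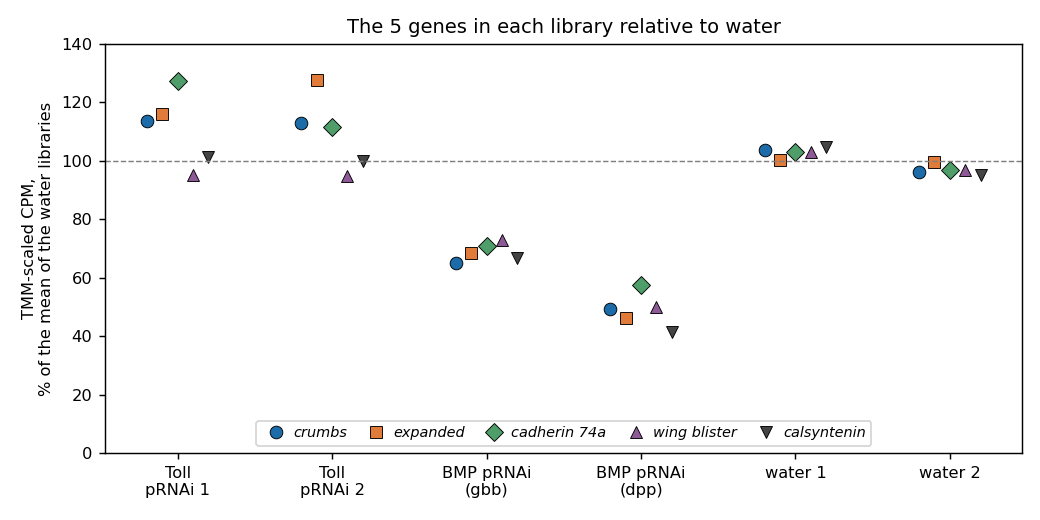
TMM-scaled CPM of the 5 genes in each of the 6 libraries, as a percentage of the mean of the water libraries (vertical axis; dashed line, 100%). The gbb pRNAi library lies between 65.1% and 72.8%, the dpp pRNAi library between 41.5% and 57.6%, and the Toll pRNAi libraries between 94.7% and 128%.

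The 5 genes varied together over the libraries. Over the 10 pairs of genes, Pearson's r of log2 CPM across the 6 libraries was between 0.91 and 0.995, lowest for wing blister with cadherin 74a and highest for wing blister with calsyntenin. These values describe 6 points that fall into 3 groups and share their library scaling. All 5 genes were selected by the study from these libraries and were low in both BMP pRNAi libraries, so a high r is no separate result. Among 85 other loci of the study's list that hold 1 gene identifier, the loci most like crumbs were rotund (r = 0.999), a zinc finger gene listed with an anteroposterior pattern, mew (r = 0.995), an integrin alpha subunit, and expanded (r = 0.989). Expanded was most like mew, crumbs and rotund (r = 0.989, 0.989 and 0.983).

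Cadherin 74a was most like stardust (r = 0.996), cg11966 (r = 0.991) and CG12581 (r = 0.989). Wing blister was most like calsyntenin (r = 0.995), the unnamed broad lateral gene Nasvi2EG014440 (r = 0.958) and rotund (r = 0.954). Calsyntenin was in turn most like wing blister, crumbs (r = 0.976) and rotund (r = 0.9749). The genes that paired most closely with one of the 5 were thus in part other adhesion or polarity genes and in part not.

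Fate markers moved in the same libraries. The summed level of the 3 mesoderm markers twist, snail and six4 was 136 and 116 FPKM in BMP pRNAi libraries, against 62.8 and 59.6 FPKM in water libraries, and each of the 3 rose. The mesectoderm marker single-minded and the ventral ectoderm marker vnd summed to 72.1 and 53.6 FPKM in BMP pRNAi libraries, against 29.7 and 27.8 FPKM in water libraries. Both rose. The 3 serosa markers zen, dorsocross and grain fell, summing to 19.5 and 19.1 FPKM in BMP pRNAi libraries, against 74.5 and 80.5 FPKM in water libraries. No marker with a locus was at 0. In Toll pRNAi libraries the mesoderm markers summed to 14.4 and 10.7 FPKM, single-minded and vnd to 12.3 and 10.47 FPKM and the serosa markers to 96.3 and 92.5 FPKM. Each mesoderm marker was called lower than in water (edgeR adjusted p between 0.000269 and 0.0145). Single-minded was too (log2 fold change -2.52, edgeR adjusted p = 0.000141), but vnd did not pass (-0.37, adjusted p = 0.233). Of the serosa markers dorsocross rose (0.52, adjusted p = 0.0330), while zen (0.21, adjusted p = 0.332) and grain (0.27, adjusted p = 0.0866) did not pass. The part of these shifts in the fall of the 5 genes was not tested.

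Stardust and yorkie, known in Drosophila as partners of Crumbs and of Expanded's pathway, both fell after BMP pRNAi. Stardust, the Crumbs scaffold, had 28.0 and 23.4 FPKM in the gbb and dpp pRNAi libraries, against 38.96 and 37.98 FPKM in water libraries, with a log2 fold change of -0.61 (SE 0.10, edgeR adjusted p = 0.0167). Yorkie, the transcriptional effector restrained by the Hippo pathway and listed as a serosa gene, had 9.31 and 8.12 FPKM in the gbb and dpp pRNAi libraries, against 21.7 and 21.2 FPKM in water libraries. Its log2 fold change of -1.23 (SE 0.10, edgeR adjusted p = 0.000429) was larger in size than that of any of the 5. Neither gene passed the test between Toll pRNAi and water, with log2 fold changes of 0.29 for stardust and 0.39 for yorkie (edgeR adjusted p = 0.133 and 0.0605).

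The integrin alpha subunits, receptors for laminins, moved in different comparisons. Mew, listed as absent from the mesoderm only, had 6.35 and 4.80 FPKM in the gbb and dpp pRNAi libraries, against 10.3 and 10.03 FPKM in water libraries, and fell by 0.83 on the log2 scale (SE 0.11, edgeR adjusted p = 0.00647). Inflated is listed as a ventral mesoderm gene, and the study also described dorsal expression of it. It had 3.49 and 3.16 FPKM in Toll pRNAi libraries, against 7.23 FPKM in each water library, with a log2 fold change of -1.10 (SE 0.09, edgeR adjusted p = 0.00102). After BMP pRNAi inflated had 8.81 and 9.02 FPKM, with a log2 fold change of 0.28 that did not pass the test (edgeR adjusted p = 0.0752). The direct comparison of Toll pRNAi with BMP pRNAi was 1.10 for mew and -1.37 for inflated, and both passed the test.

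The study assigned 15 other genes to adhesion, morphogenesis or the cytoskeleton. Of these, 9 fell, 1 rose and 5 did not pass the test between BMP pRNAi and water, with a median log2 fold change of -0.65. Over all loci, 3.49% were called lower and 2.06% higher in this comparison. After Toll pRNAi, 7 of the 15 fell, 1 rose and 7 did not pass, with a median of -0.04. Here 1.03% of all loci were called lower and 2.6% higher. The counts are given here by listed expression domain, without a test between domains. All 3 genes absent from the mesoderm only (mew, stardust and echinus) fell after BMP pRNAi, by 0.61 to 0.83 on the log2 scale, and had log2 fold changes of 0.27 to 0.42 after Toll pRNAi (edgeR adjusted p between 0.0611 and 0.185). All 3 serosa genes (Myosin XV, short stop and CG12581) also fell after BMP pRNAi, with log2 fold changes between -1.56 and -0.82, and had values of 0.02 to 0.23 after Toll pRNAi (edgeR adjusted p between 0.491 and 0.966). The dorsolateral gene CG14692 fell after BMP pRNAi (-1.10) and rose after Toll pRNAi (0.46).

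All 6 ventral genes fell after Toll pRNAi, where 1.03% of all loci were called lower. Their log2 fold changes lay between -3.63 for CG42346 and -0.69 for epithelial membrane protein. After BMP pRNAi their directions differed, with CG42346 rising (0.68), neprilysin (-0.74) and epithelial membrane protein (-0.65) falling, and cg2254, tenascin-major and inflated not passing the test. For cg2254 and inflated the study described dorsal expression besides the ventral domain. Of the ventrolateral genes, blistery fell after Toll pRNAi (-1.68) and traf4 did not pass (-0.04). The loci of blistery, traf4, short stop, CG42346 and tenascin-major hold more than 1 gene identifier, so what is measured there may belong partly to a neighbour, and for traf4 the log2 ratio of FPKM in Toll pRNAi to water (-0.47) departed from that of the counts. As with the 5 genes, these were selected by the study from the same libraries.

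**Figure D4:**
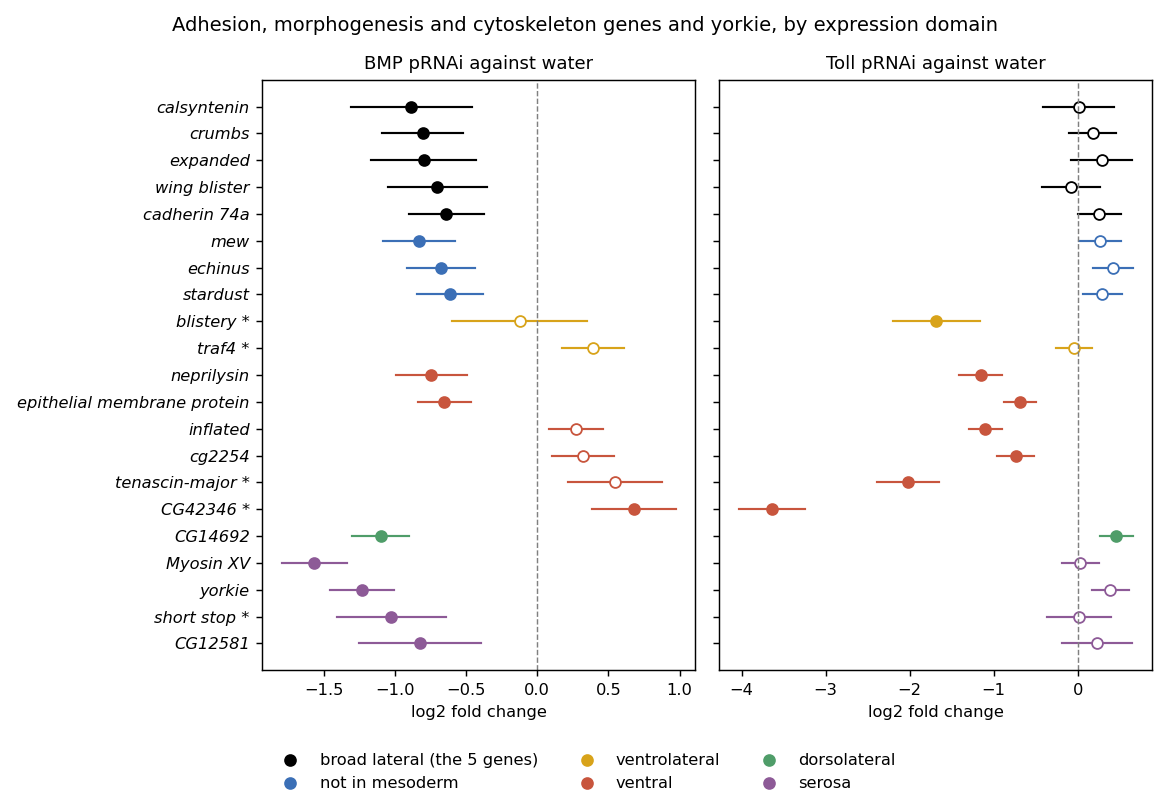
Log2 fold change (points) with 95% confidence intervals (lines) of the 5 genes, the 15 other adhesion, morphogenesis and cytoskeleton genes and yorkie, grouped by listed expression domain, for BMP pRNAi (left) and Toll pRNAi (right), each against water (the panels have different scales). Filled points passed the edgeR test, and an asterisk marks a locus with more than 1 gene identifier. The 6 ventral genes lie below 0 after Toll pRNAi, from -3.63 to -0.69, while the 5 broad lateral genes lie between -0.08 and 0.29.

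The 17 other broad lateral genes, which share the expression class but not the function, were set beside the 5. Like the 5, they come from the list that the study drew from these libraries. Between BMP pRNAi and water, 10 fell, 1 rose and 6 did not pass, where 3.49% of all loci were called lower and 2.06% higher. Their median log2 fold change was -0.69. The range ran from -1.11 (the unnamed gene Nasvi2EG019897) to 0.99 (CG42249, whose locus holds more than 1 gene identifier). The gene listed as TFIIA (Nasvi2EG006076) had the next lowest value, at -1.07. The study's text names TFIIF1, and not TFIIA, among the broad lateral genes. After Toll pRNAi, 5 of the 17 rose and 1 fell, where 2.6% of all loci were called higher and 1.03% lower. The median was 0.48, beside a median of 0.18 and no call among the 5. TFIIA rose by 0.93 and the unnamed gene Nasvi2EG004843 by 0.81 on the log2 scale, and CG42249 had a log2 fold change of -2.76. In the direct test, Toll pRNAi libraries exceeded BMP pRNAi libraries for 13 of the 17 and lay below them for 1. Over all loci, 5.83% were called higher and 1.06% lower. The median of the 17 was 0.99, beside 0.90 for the 5. Whether the adhesion and polarity genes differ from the other broad lateral genes was not tested.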

How the data were processed

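The authors mapped reads with TopHat2 2.0.3 to assembly 1.0 and ran Cuffdiff (Cufflinks 2.0.2). For each locus in each library the deposited table holds an expected count, unscaled, and the FPKM that the authors' run scaled for library size and transcript length. Replicates were matched to libraries through the input order in the printed Cuffdiff call, and columns of values not matched to a library numbered 0. A partial table paired 1799 loci with 2019 gene identifiers.

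Expected counts were rounded to whole numbers and tested with edgeR 4.0.16 in R 4.3.3 (quasi-likelihood test, TMM, default filter, all 6 libraries, Benjamini-Hochberg adjustment, threshold 0.05), which kept 10241 loci with a biological coefficient of variation of 0.0953. The test was tried on simulated data. Exact permutation of 2 against 2 libraries could not reach the threshold, so p comes from this fit, measuring spread between pools. Alternatives used DESeq2 1.42.0, limma 3.58.1, RLE size factors, other filters, FPKM with pseudocounts of 1 and 0.1, only the groups compared, each library left out, and a block by title number. limma voom with a weight per group was chosen after seeing the data. The 5 genes were named in every comparison, other adhesion genes and yorkie with their values, other broad lateral genes by counts and the 2 largest changes passing the test in each direction, and similar genes as the 3 loci with the highest r. Members and lists were chosen with earlier results of these data known. The germline marker orb was not analysed here. Tables were made with Python 3.11.15.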

Additional observations from a re-analysis of the deposited data

How the results depend on the processing

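The directions of the 5 genes held in every alternative for BMP pRNAi against water (15 alternatives) and for Toll pRNAi against BMP pRNAi (16), while calls did not. Of the 5 genes called lower after BMP pRNAi, limma on log2(FPKM + 1) called 1, limma on log2(FPKM + 0.1) called 2, limma with no filter called 0 and edgeR on only the 2 groups compared called 1. Calls also depended on which library was left out, as described above. All 5 were called with RLE size factors, both other count filters, DESeq2 and voom. Between Toll pRNAi and BMP pRNAi the limma fits on FPKM called 3, 3 and, with no filter, 0 of the 5, and calls again depended on which library was left out. Between Toll pRNAi and water, only expanded gained a call, with only the 2 groups compared (1 gene), and leaving out 1 library gave 0 to 1. A group's lone library is then assumed to vary like the other groups. The sign of calsyntenin there, near 0, turned under RLE (-0.0034), no filter (-0.018), DESeq2 (-0.0059), limma (-0.010, -0.011 and -0.010), and only the 2 groups (-0.0082), and ranged from -0.059 to 0.083 leaving out 1 library.

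Over all loci, 568 were called between BMP pRNAi and water, against 2053 with no filter, 1325 with DESeq2, 254 and 43 with limma on log2(FPKM + 1) with and without the filter, 162 with only the 2 groups, 350 with voom, and 90 to 2628 leaving out 1 library. Between Toll pRNAi and water, 371 were called, against 1238 with no filter, 779 with DESeq2, 66, 183 and 43 with limma on FPKM, 1343 with only the 2 groups, 1327 with voom, and 22 to 1358 leaving out 1 library. Between Toll pRNAi and BMP pRNAi, 706 were called, against 1641 with no filter, 391, 432 and 124 with limma on FPKM, and 217 to 2045 leaving out 1 library. The cause of these differences was not tested.

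The replicate block by title number gave 1369 called loci between Toll pRNAi and BMP pRNAi, against 474 from the same libraries without it and 706 from all 6, and 5 of the 5 genes stayed called. Same-numbered libraries deviated together with a correlation of 0.12, but 2 pairs cannot settle pairing, and the labels do not explain the numbers.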
